A study of Sus scrofa with 9 samples.

Results

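The genes described here are the fibroblast growth factor (FGF) receptors and ligands of porcine aortic valvular interstitial cells (PVICs). They were chosen by symbol from the gene rows of the count table and number 10 of 19535 genes. The receptors are FGFR1, FGFR2, FGFR3, FGFR4 and FGFRL1, and the ligands are FGF1, FGF2, FGF7, FGF10 and FGF18. All 10 had a row, and all 10 passed the filter on low counts that kept 13662 genes for testing.

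RNA was sequenced from wild type primary PVICs, isolated from the aortic valve leaflets of pigs 4 to 5 months old, in 3 groups of 3 libraries. The control group was grown in DMEM for 3 days. The OIM group received osteogenic induction medium, with insulin at 1e-07 mol/L, ascorbic acid at 50 µg/mL and sodium dihydrogen phosphate at 2 mmol/L, for the same 3 days. The bFGF group received OIM together with 50 ng/mL basic fibroblast growth factor (bFGF), which is the protein encoded by FGF2, so it differs from the OIM group by bFGF and from the control group by OIM and bFGF together. No group received bFGF without OIM. The labels do not say whether the libraries of a group came from separate animals or cultures, so the p-values below measure the spread between these libraries, which may be technical.

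FGFs are secreted ligands that bind, together with heparan sulfate, to receptor tyrosine kinases on the cell surface. Ligand binding pairs the receptors and starts signalling through the RAS, RAF, MEK and ERK kinases, through phosphatidylinositol 3-kinase and through phospholipase C gamma, and it induces inhibitors such as the Sprouty proteins that dampen the same pathway. In mesenchymal cells FGF signalling is known for its control of proliferation and of bone and cartilage formation.

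Total gene counts ranged from 57075793 to 64723837 in the control libraries, from 57682710 to 67371523 in the OIM libraries and from 46773376 to 48270827 in the bFGF libraries. Levels are given as CPM, counts scaled to a common library size, after normalization with the trimmed mean of M values (TMM). The OIM library of replicate 2 stood farthest from the other libraries of its group, with a mean chi-square per gene of up to 19.1 against either of them, where the lowest value for any pair of libraries in a group was 4.69. As a check of the cell type, 12 of 12 interstitial cell or fibroblast markers reached 1 CPM in all 3 groups, and 0 of 5 epithelial markers did. Of 7 leukocyte markers 2, 2 and 1 reached 1 CPM in the control, OIM and bFGF groups, and CD3E had no counts in any library. Some marker sums moved with the bFGF group. The 12 fibroblast markers summed to 66800 to 76010 CPM in the control and OIM libraries and to 41610 to 41990 CPM in the bFGF libraries. In bFGF against OIM 5 of the 12 were called lower (COL1A1, COL1A2, COL3A1, DCN and VCAN) and 3 higher (VIM, POSTN and TCF21), and the collagens COL1A1 and COL1A2 gave most of the difference in the sum. The 5 smooth muscle markers, all of them at 1 CPM or more in every group, summed to 9568 to 13050 CPM without bFGF and to 1537 to 1713 CPM with it, and 5 of 5 were called lower against OIM and 4 against control, where MYOCD was not. Of 10 endothelial markers 4, 5 and 7 reached 1 CPM in the control, OIM and bFGF groups, and they summed to 74.1 to 90.2 CPM without bFGF and to 171 to 180 CPM with it. Of the 10, 7 were called higher in bFGF against OIM (PECAM1, CDH5, TEK, KDR, CLDN5, ERG and EMCN) and 5 against control, where CDH5 and CLDN5 were not. The transcription factor ERG gave most of the sum, with a mean of 137 CPM in the bFGF libraries, and PECAM1 had 20.7 CPM, KDR 1.18 CPM and CLDN5 0.336 CPM there. Over all genes tested, 17.7% were called higher and 18.4% lower in bFGF against OIM, and 18.9% and 20.0% in bFGF against control. The 7 leukocyte markers summed to 14.3 to 17.7 CPM without bFGF and to 8.61 to 9.49 CPM with it, most of it from CD14, and in bFGF against OIM 2 were called lower (CD14 and CD163), 3 were not called and 2 were not tested. The part of these markers in the results below was not tested. In these bulk libraries fewer cells of a type cannot be told apart from less of an RNA per cell.

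FGFR2, the receptor gene with the largest change, also had the most circular RNAs (circRNAs) among the members. A circRNA forms when the end of a later exon is joined back to the start of an earlier one. The table listed 6 circRNAs of FGFR2, which lies on chromosome 14 from 131183095 to 131285001 on the minus strand of Sscrofa11.1, and 1 of FGFR1, which lies on chromosome 15 from 48053895 to 48106634 on the plus strand. Their back-splice junctions are shown because that junction is what defines each circRNA. Each line gives 15 bases before the junction in lower case and 15 bases after it in capitals, 5′ to 3′ on the strand of the gene, read from the RefSeq genome of the same build.
FGFR1 exons 6 to 7, chr15:48094739-48096210: gtccagatcttgaagGTCCGTTATGCCACC
FGFR2 exons 2 to 5, chr14:131238819-131262177: acctcgacgtcgttgAGCCACCAACCAAAT
FGFR2 exons 3 to 5, chr14:131238819-131261017: acctcgacgtcgttgATGCCATCTCGTCCG
FGFR2 exons 6 to 12, chr14:131198849-131221493: ttggcctcccaaaaaAGCGATCGCCGCACC

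Of the 6 FGFR2 circRNAs these are the 3 with the most counts, and the first 2 of them end at the same exon, exon 5. All the joined ends printed lay in coding sequence, at annotated exon boundaries that the introns flank with AG and GT.

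FGFR1, the receptor of most mesenchymal cells, was the most abundant receptor per length with bFGF and differed little between groups. Its levels were 175, 186.2 and 174.7 CPM in the control libraries, 194.7, 196.1 and 185.9 CPM in the OIM libraries and 227.8, 226.1 and 223 CPM in the bFGF libraries. The bFGF libraries were all above the other 6, whereas the control and OIM groups overlapped. The log2 fold change was 0.23 ± 0.037 (SE) for bFGF against OIM (adjusted p = 1.72e-05, quasi-likelihood test of edgeR with the Benjamini-Hochberg correction, as throughout) and 0.34 ± 0.037 for bFGF against control (adjusted p = 1.09e-07). Both were below the limit of 0.5 on the log2 scale that a call required in addition to an adjusted p of at most 0.05. With library totals in place of TMM the difference from control was 0.56 and was called. That scaling raised the median of all genes by 0.22 on the log2 scale in both comparisons with the bFGF group. OIM against control gave 0.11 ± 0.037, with an adjusted p of 0.0694.

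FGFR2, whose splice forms bind different FGFs in epithelial and in mesenchymal cells, fell most among the receptors. Control libraries had 149.2, 168.8 and 157.1 CPM, OIM libraries 134.4, 117.8 and 134.9 CPM and bFGF libraries 16.4, 16.3 and 15.8 CPM. The groups did not overlap in any of the 3 comparisons, and the bFGF libraries lay within 1 CPM of each other. Means were 158 ± 9.84, 129 ± 9.71 and 16.2 ± 0.339 CPM (SD, n = 3 each). FGFR2 fell 7.98-fold from OIM to OIM with bFGF, by 3.00 ± 0.061 on the log2 scale (adjusted p = 8.22e-19), and was 9.80-fold lower than in control cells (adjusted p = 1.8e-19). The fall was called in 16 of 16 alternative fits in each comparison. OIM against control was lower by a smaller amount, with a log2 fold change of -0.30 ± 0.052 and an adjusted p of 0.00058, below the fold limit. The gene counts do not separate the splice forms.

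FGFR3 and FGFR4, the receptors known from growth plate cartilage and from liver, were rare transcripts, with 105 to 164 and 144 to 195 counts per library. FGFR3 stood at 1.98, 1.78 and 1.76 CPM in control, 2.14, 2.29 and 2.31 CPM in OIM and 2.37, 2.31 and 3.15 CPM in bFGF libraries. The control group lay below both of the others, which overlapped. FGFR3 was called higher in bFGF than in control (log2 fold change 0.50 ± 0.20, adjusted p = 0.0283), just above the fold limit. Bearing on this call, the value fell to 0.35 (adjusted p = 0.163) without bFGF replicate 3, to 0.48 (adjusted p = 0.066) without control replicate 2 and to 0.47 (adjusted p = 0.0722) without control replicate 3. Neither bFGF against OIM (adjusted p = 0.337) nor OIM against control (adjusted p = 0.385) was called for FGFR3.

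FGFR4 had 2.70, 2.48 and 2.86 CPM in control libraries. OIM libraries had 2.66, 2.29 and 2.99 CPM and bFGF libraries had 2.69, 3.21 and 3.75 CPM. All 3 groups overlapped, and no comparison of FGFR4 was called. The 95% interval of the log2 difference between bFGF and OIM ran from -0.094 to 0.66. Library totals alone gave 0.51 for this difference and a call.

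**Figure D1:**
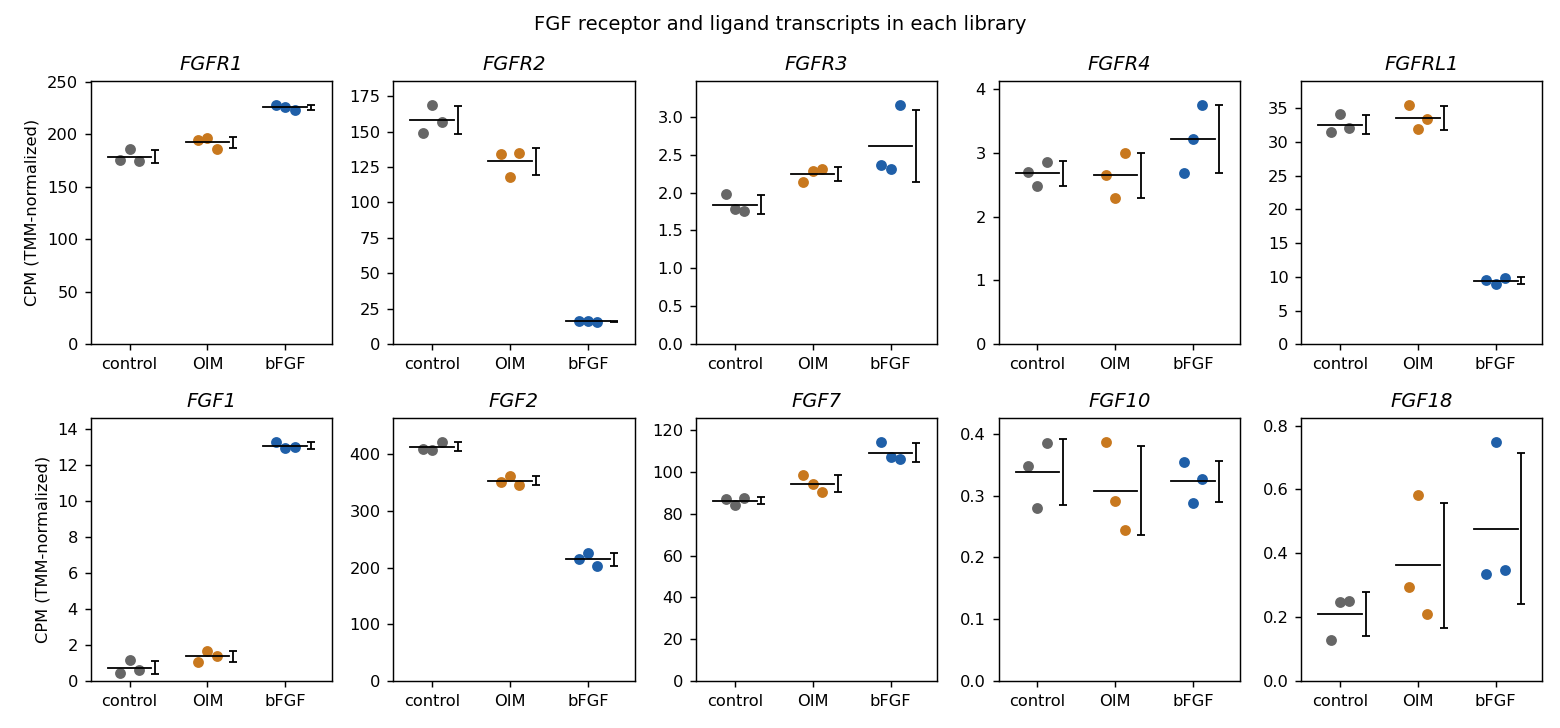
Normalized level in CPM (vertical axes, each from 0 and with its own scale) of the 10 FGF receptor and ligand genes in each of the 9 libraries, by group; points are libraries, horizontal lines are group means and error bars are SD (n = 3). The bFGF libraries lie far below the others for FGFR2 and FGFRL1, moderately below for FGF2, and far above for FGF1, which reached 12.9 to 13.3 CPM.

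The makeup of the tyrosine kinase receptors was compared per length, as CPM per kb of exons, because levels of different genes depend on transcript length. FGFR1 made up 48, 46.6 and 46.7% of the summed FGFR1 to FGFR4 level in the control libraries and 53.2, 56.6 and 51.9% in the OIM libraries. In the bFGF libraries its share was 90.2, 90.02 and 89.7%. FGFR2 had the complementary pattern, with mean shares of 51.8 ± 0.856% in control, 44.9 ± 2.36% in OIM and 7.99 ± 0.105% in bFGF libraries (SD, n = 3). FGFR3 and FGFR4 together stayed a small part, each with a mean share of at most 1.31%. The ratio of FGFR1 to FGFR2 was 0.91 ± 0.0304 in control, 1.21 ± 0.12 in OIM and 11.3 ± 0.119 in bFGF libraries, and the groups did not overlap in it. No separate test was made of these shares, which restate the levels of FGFR1 and FGFR2. They are independent of the scaling between libraries.

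**Figure D2:**
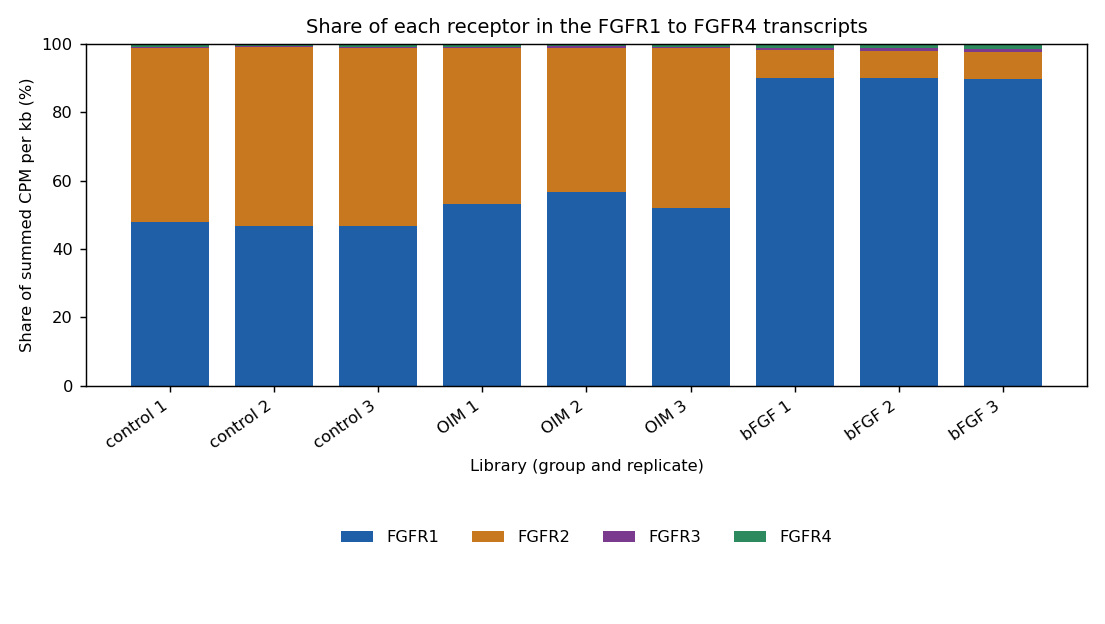
Share of FGFR1, FGFR2, FGFR3 and FGFR4 in their summed CPM per kb (vertical axis, percent) for each of the 9 libraries (bars). FGFR1 and FGFR2 have similar shares in the 6 libraries without bFGF, and FGFR1 holds 89.7 to 90.2% in the 3 with it.

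FGFRL1, which resembles the FGF receptors outside the cell but lacks the tyrosine kinase domain, fell as well. It had 31.5, 34.2 and 32.1 CPM in control, 35.5, 31.9 and 33.4 CPM in OIM and 9.51, 8.88 and 9.89 CPM in bFGF libraries. Control and OIM overlapped, and the bFGF libraries were all below both. FGFRL1 fell 3.56-fold against OIM (log2 fold change -1.83 ± 0.071, adjusted p = 1.12e-14) and was 3.46-fold lower than in control (adjusted p = 1.28e-14), with a call in 16 of 16 alternatives each time. OIM against control gave 0.044 ± 0.065 with an adjusted p of 0.725.

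FGFRL1 lies on chromosome 8 from 365367 to 378384 on the plus strand. The annotation places a long non-coding RNA, LOC110262031, on the minus strand from 356892 to 366157, across the first 791 bases of FGFRL1, and 105 of these bases are exon in both. The transcript XR_002346510.1 of this gene was listed at estimated counts of 45.2, 39.8 and 42.4 in control, 28.9, 29.6 and 29.5 in OIM and 3.83, 2.83 and 4.67 in bFGF libraries. None of the 3 groups overlapped, and the bFGF libraries were lowest. It was called lower in bFGF than in OIM (log2 fold change -2.68 ± 0.368, adjusted p = 0.00281) and than in control (-3.22 ± 0.372, adjusted p = 0.00085), where 6.08% and 7.72% of the 2253 non-coding transcripts tested were called lower. OIM against control was not called (-0.54 ± 0.326, adjusted p = 0.943). Whether the counting used strand is not given in the sources used here, so reads from the shared exon bases cannot be told apart between the 2 genes.

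Both genes of this pair were called lower with bFGF, so the 250 bases before each annotated start are printed. They read 5′ to 3′ on the strand of the gene, from the RefSeq genome of Sscrofa11.1. Because of the shared exon bases, a fall of LOC110262031 apart from that of FGFRL1 is not established. The window of LOC110262031 lies inside FGFRL1 and outside its exons. Capitals mark GGGCGG on either strand, the core letters of the GC box bound by the SP and KLF factors, with overlapping matches run together.
FGFRL1, chr8:365117-365366, plus strand: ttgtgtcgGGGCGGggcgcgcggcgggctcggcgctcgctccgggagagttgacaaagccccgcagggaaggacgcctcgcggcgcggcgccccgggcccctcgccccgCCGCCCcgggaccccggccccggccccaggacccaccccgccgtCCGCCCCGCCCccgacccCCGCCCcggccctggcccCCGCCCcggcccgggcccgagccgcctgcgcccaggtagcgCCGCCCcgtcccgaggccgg
LOC110262031, chr8:366158-366407, minus strand: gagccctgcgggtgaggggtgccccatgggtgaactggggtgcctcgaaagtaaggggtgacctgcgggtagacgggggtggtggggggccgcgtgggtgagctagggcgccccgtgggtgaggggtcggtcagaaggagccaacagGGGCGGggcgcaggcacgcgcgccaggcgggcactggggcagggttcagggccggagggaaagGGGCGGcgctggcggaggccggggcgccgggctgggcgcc

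The FGFRL1 window held 7 matches to GGGCGG and the LOC110262031 window 2. Of 19556 windows of the same length before annotated protein-coding genes, 45.9% held at least 1. Its GC content of 86% put the FGFRL1 window at the percentile 99.3 of these windows, and LOC110262031, at 76%, lay at the percentile 91.1. Neither window held TGANTCA, the letters of the AP-1 site, or CCGGAAG, those of an ETS site, on either strand, which 5.27% and 7.77% of the windows held. A match is a description of these letters and not of binding.

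**Figure D3:**
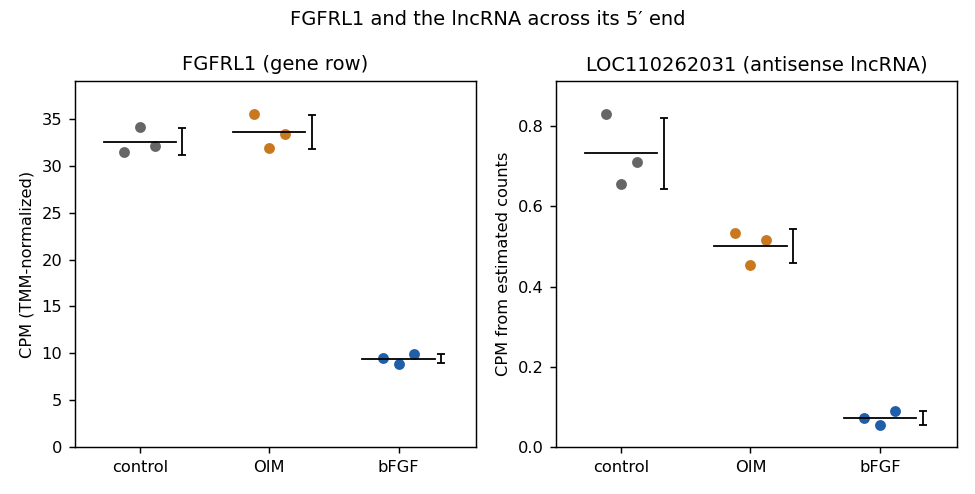
Level in CPM (vertical axes from 0, separate scales) of FGFRL1 and of the antisense transcript of LOC110262031 in each library by group; points are libraries, lines are means and error bars are SD (n = 3). Both are lowest in the bFGF libraries, and LOC110262031 had 0.0545 to 0.0899 CPM there.

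Among the 5 member ligands, FGF1, which binds all the receptors with a kinase domain, rose most. Its counts were 25, 71 and 36 in control, 57, 110 and 78 in OIM and 714, 673 and 676 in bFGF libraries. In normalized terms this was 0.459, 1.17 and 0.603 CPM in control, 1.05, 1.69 and 1.36 CPM in OIM and 13.3, 12.9 and 13 CPM in bFGF libraries. The bFGF libraries were far above the other 6, among which control replicate 2 overlapped the OIM group. FGF1 rose 9.48-fold from OIM to OIM with bFGF (log2 fold change 3.24 ± 0.205, adjusted p = 2.3e-11) and 17.4-fold against control (4.12 ± 0.223, adjusted p = 1.66e-12), with a call in 16 of 16 alternatives in both. Between OIM and control it was also called higher (0.87 ± 0.255, adjusted p = 0.0265). This smaller difference was not called without control replicate 1 (0.63, adjusted p = 0.136), without control replicate 3 (0.74, adjusted p = 0.118), without OIM replicate 2 (0.69, adjusted p = 0.0703) or with only these 2 groups in the fit (0.88, adjusted p = 0.137), whereas without control replicate 2 it was 1.37 (adjusted p = 0.00119).

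FGF2 encodes the endogenous form of the growth factor that was added as a protein, which itself adds no reads. It stood at 409.3, 407.9 and 422 CPM in control and 351.6, 362 and 346 CPM in OIM libraries. The bFGF libraries had 214.8, 226.4 and 203.1 CPM. The 3 groups did not overlap, with control highest and bFGF lowest. FGF2 fell 1.64-fold from OIM to OIM with bFGF (log2 fold change -0.72 ± 0.039, adjusted p = 2.52e-12) and was 1.92-fold lower than in control (-0.94 ± 0.04, adjusted p = 3.04e-14). With library totals alone the first of these was -0.50 when rounded, just inside the fold limit, and was not called. OIM against control gave -0.23 ± 0.039 with an adjusted p of 0.000483, below the fold limit.

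NUDT6 lies opposite to FGF2 on chromosome 8 and shares 1014 exon bases with it. NUDT6 had 128 to 199 counts per library beside 10559 to 25204 of FGF2, and none of its comparisons was called (log2 fold change 0.29 ± 0.18 for bFGF against OIM, adjusted p = 0.16). FGF2 lies from 101278877 to 101344084 on the minus strand.

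FGF7, the keratinocyte growth factor that mesenchymal cells secrete, was present in every group. It stood at 87.3, 84.3 and 87.5 CPM in control, 98.8, 94.3 and 90.4 CPM in OIM and 114.6, 107.1 and 106.1 CPM in bFGF libraries. The groups did not overlap and ran from control through OIM to bFGF. The log2 fold changes were 0.21 ± 0.044 against OIM (adjusted p = 0.000298) and 0.34 ± 0.044 against control (adjusted p = 9.54e-07), both below the fold limit, and the latter became 0.56 and a call with library totals alone. FAM227B lies on the strand opposite to FGF7 and across its whole length but with no shared exon bases. It had 71 to 170 counts per library. FAM227B was called lower in bFGF than in OIM (-0.62 ± 0.228, adjusted p = 0.021), although the CPM of these groups overlapped. Against control it was also called lower (-0.57 ± 0.228, adjusted p = 0.0328), without overlap.

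FGF10, a ligand known from branching epithelia, was near the limit of detection, with 14 to 23 counts per library. Its groups overlapped in each comparison and none was called. The 95% interval of its log2 difference between bFGF and OIM ran from -0.92 to 1.07. FGF18, a ligand known from bone and cartilage, had 7, 15 and 15 counts in control, 16, 38 and 12 in OIM and 18, 39 and 18 in bFGF libraries. The library of replicate 2 was the highest in both the OIM and the bFGF group, and these 2 groups overlapped. FGF18 was not called in bFGF against control (log2 fold change 1.17 ± 0.554, adjusted p = 0.0662), although the groups did not overlap. It was called there with library totals alone (1.40, adjusted p = 0.0305) and with only the 2 groups in the fit (1.19, adjusted p = 0.0455), and the value was 0.69 (adjusted p = 0.353) without bFGF replicate 2.

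Over the 10 members, 1 was called higher and 0 lower in OIM against control, where 1.49% of all genes tested were called higher and 0.864% lower. With edgeR, 2 members were lower there at an unadjusted p below 0.05 and also at an adjusted p of at most 0.05 with no fold limit, and DESeq2 called 0 lower. In bFGF against OIM 1 was called higher and 3 lower, beside 17.7% and 18.4% of all genes. In bFGF against control 2 were called higher and 3 lower, beside 18.9% and 20.0%. With library totals alone the split over all genes was 3733 higher and 1694 lower in place of 2420 and 2519 in bFGF against OIM, and 3931 and 1840 in place of 2584 and 2739 in bFGF against control. Groups did not overlap for 2 members upward and 2 downward in OIM against control, for 3 and 3 in bFGF against OIM and for 5 and 3 in bFGF against control, where the shares over all genes were 28.7%, 72.1% and 73.7%. With so many genes changed by bFGF, the number of members that changed was no result about this family. The median log2 fold change of the members in bFGF against OIM was 0.21, beside -0.0029 over all genes.

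**Figure D4:**
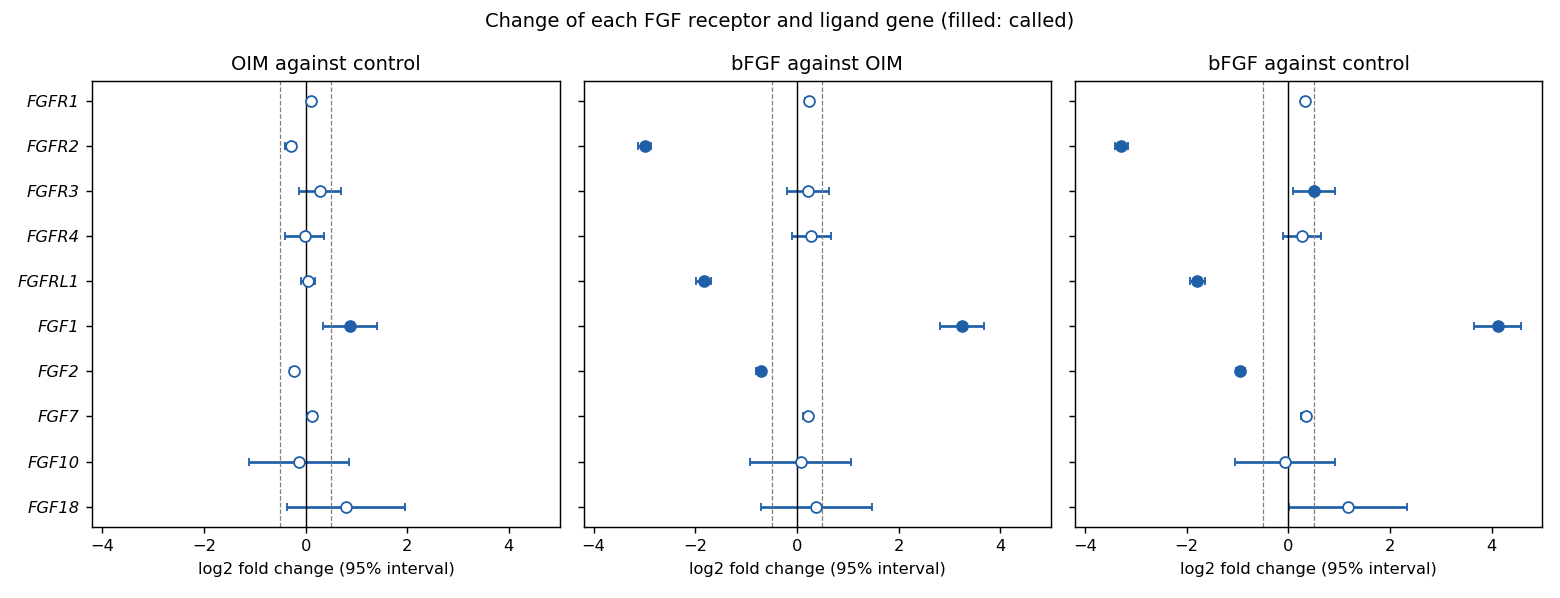
Log2 fold change (horizontal axes) of each of the 10 genes in the 3 comparisons, with 95% intervals as bars; filled points were called, and dashed lines mark the fold limit of 0.5 in either direction. FGFR2, FGFRL1 and FGF2 lie on the low side and FGF1 on the high side in both comparisons with bFGF, and the intervals of FGF10 and FGF18 are the widest.

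Per length, the order of the members also changed between groups. In control libraries FGF2 (61.8 CPM per kb), FGFR2 (59.9) and FGFR1 (54.4) led, and the libraries of neighbours in this order overlapped. In OIM libraries FGFR1 (58.6), FGF2 (52.8), FGFR2 (48.8) and FGF7 (43.6) led, of which FGFR2 and FGF7 overlapped. In bFGF libraries FGFR1 (68.7), FGF7 (50.4) and FGF2 (32.1) led with no overlap, followed by FGFR2 (6.11), FGFRL1 (3.24) and FGF1 (3.04), of which the last 2 overlapped. FGF10 was lowest in each group, at 0.0479 to 0.0526 CPM per kb.

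The circRNA rows gave few reads for the receptors. The FGFR1 circRNA had 16 back-splice counts over the control libraries, 3 over the OIM libraries and 2 over the bFGF libraries. The FGFR2 circRNA of exons 2 to 5 had 28, 12 and 6, and that of exons 3 to 5 had 8 in control libraries and 0 in the others. The 6 FGFR2 circRNAs together had 41, 21 and 6 counts, and the 6 in the bFGF group all came from replicate 1. Set against the linear gene, this was 14.8, 9.27 and 23.6 back-splice counts per 10000 FGFR2 gene counts, and for FGFR1 it was 5.12, 0.884 and 0.562, of which the OIM and bFGF counts each came from replicate 3 alone. None of these circRNAs passed the filter on low counts, and no test was made.

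The genes whose pattern over the 9 libraries was most like that of a called member were found by the distance between centred log2 CPM profiles, where 0 is identity. For FGFR2 they were FAM180A (distance 0.19), LOC110257420 (0.229) and SLC16A3, a lactate transporter (0.345). FAM180A had means of 120.7, 99.7 and 12.1 CPM in control, OIM and bFGF libraries. For FGFRL1 they were KCTD11 (0.201), the matricellular gene CTGF (0.244) and LIMCH1 (0.249). CTGF had means of 2301, 2410 and 696 CPM.

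For FGF2 the nearest were OS9 (0.15), VDAC3 (0.155) and the laminin gene LAMA4 (0.163). LAMA4 had means of 994, 860 and 513 CPM. For FGFR3 they were OGFOD2 (0.238), CNTF (0.248) and AKIP1 (0.306). By this distance FGF1 had no profile as close, since its nearest were the metalloprotease gene ADAM8 (1.11), PRAG1 (1.12) and HSD3B1 (1.14). The Pearson correlations of these 3 with FGF1 were 0.985, 0.980 and 0.983. Those of OGFOD2, CNTF and AKIP1 with FGFR3 were lower, at 0.942, 0.943 and 0.907. The choice of measure mattered here. By Pearson correlation the 3 nearest genes shared 1 name with these lists for FGFR2 and for FGFR3 and 0 for FGFRL1, FGF1 and FGF2.

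The other FGF ligands formed a list of 17 genes, of which 7 were tested. In bFGF against OIM 2 were called higher and 3 lower, where 17.7% and 18.4% of all genes were, with a median log2 fold change of -0.89, the value of FGF21, which was not called, beside -0.0029 over all genes. Against control the counts were also 2 and 3, where 18.9% and 20.0% of all genes were called, with a median of -0.023. FGF19, an endocrine FGF, had 14, 1 and 0 counts in control, 6, 8 and 3 in OIM and 159, 182 and 226 in bFGF libraries. The bFGF libraries were all far above the rest, and FGF19 rose by a fitted 5.20 ± 0.554 on the log2 scale (adjusted p = 6.4e-08), a size that is uncertain because the OIM counts were so low. FGF11, FGF12 and FGF13 encode FGF-like proteins that stay inside the cell. FGF13 rose 4.49-fold, from a mean of 7.91 ± 1.90 to 35.6 ± 0.621 CPM (adjusted p = 1.25e-12), while FGF11 fell 4.05-fold, from 6.40 ± 0.338 to 1.58 ± 0.231 CPM (adjusted p = 7.78e-11), and FGF12 fell 3.92-fold, from 10.5 ± 0.336 to 2.67 ± 0.479 CPM (adjusted p = 1.15e-11). FGF9, a secreted ligand, fell 2.49-fold, from 3.38 ± 0.206 to 1.36 ± 0.492 CPM (adjusted p = 2.58e-05; SD, n = 3 for each mean). With edgeR 0 of the 7 were called in OIM against control, where the median was 0.012, 2 were lower at an unadjusted p below 0.05 and DESeq2 called 0. Without control replicate 1 or without OIM replicate 1, 1 was called lower there. Of the 10 that were not tested, FGF16 had the most counts, 15, 11 and 7 in the bFGF libraries beside 0 to 10 in the others, and was named after its values were seen.

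Of 19 co-receptors and binding partners 14 were tested, and 3 were called higher and 3 lower in bFGF against OIM, with a median of -0.087. These counts were close to the shares of all genes, 17.7% and 18.4%, and were no result about the list. FLRT3 and FLRT2, membrane proteins that bind FGF receptors, rose 2.45-fold (adjusted p = 3.76e-10) and 2.27-fold (adjusted p = 5.3e-14). CDH2, the gene of N-cadherin, was at 41.6 ± 3.59, 59 ± 1.85 and 93.4 ± 2.87 CPM in control, OIM and bFGF libraries, and was called higher in each step (0.51 ± 0.055, adjusted p = 2.83e-06, and 0.66 ± 0.054, adjusted p = 1.19e-09). ANOS1, which encodes the FGFR1-binding matrix protein anosmin-1, was the only member of this list to be called higher in OIM than in control (1.85 ± 0.432, adjusted p = 0.00613) and lower with bFGF than in OIM (-3.02 ± 0.48, adjusted p = 1.38e-05), at means of 0.591, 2.14 and 0.262 CPM. SULF1 and SULF2, which remove sulfate groups from heparan sulfate, fell 2.46-fold (adjusted p = 1.3e-16) and 1.53-fold (adjusted p = 7.97e-10), the latter not called with library totals alone (-0.39). In OIM against control 2 were called higher and, with edgeR and with DESeq2, 0 lower, with 1 lower at an unadjusted p below 0.05, beside 1.49% higher and 0.864% lower over all genes. The call of CDH2 there was just past the fold limit and was lost without control replicate 2 (0.44) and without OIM replicate 2 (0.48).

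Of 21 genes of the signal relay inside the cell, all tested, edgeR called 0 higher and 4 lower in bFGF against OIM, with a median of -0.14. Over all genes 17.7% were called higher and 18.4% lower, so the 4 lower were close to the share of all genes and were no result about the list. At an unadjusted p below 0.05 there were 3 higher and 12 lower, and DESeq2 called 0 higher and 4 lower. With library totals alone 1 gene, CBL, was called higher (0.52). PIK3R1, the regulatory subunit of phosphatidylinositol 3-kinase, fell 3.18-fold, from 425 ± 8.08 to 134 ± 2.20 CPM (adjusted p = 2.37e-18). The docking protein gene GAB1 fell 2.09-fold (adjusted p = 6.16e-13) and MAP2K1, which encodes the kinase MEK1, fell 1.87-fold (adjusted p = 5.65e-12). With edgeR 0 of the 21 were called in OIM against control, where 1 was higher and 3 lower at an unadjusted p below 0.05 and DESeq2 called 0. FRS2, the adaptor bound to the receptors themselves, was the remaining called gene, named after its values were seen, and lay just past the fold limit, at -0.51 on the log2 scale. It was not called with library totals alone (-0.28) or without OIM replicate 2 (-0.48), OIM replicate 3, bFGF replicate 2 or bFGF replicate 3 (each -0.50 or -0.49).

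The feedback inhibitors and target genes of the pathway, 19 genes and all tested, had the largest median change of the lists in bFGF against OIM. Like the others, this list was chosen with earlier results of these data known. In bFGF against OIM 13 were called higher and 1 lower, where 17.7% and 18.4% of all genes were, with a median log2 fold change of 1.48 beside -0.0029 over all genes. ETV5 and ETV4, ETS factors induced by FGF signalling, rose 6.57-fold (adjusted p = 7.28e-11) and 4.05-fold (adjusted p = 3.32e-12). DUSP5, a phosphatase that inactivates ERK, rose 6.26-fold (adjusted p = 2.74e-12), from 3.19 ± 0.866 to 20.1 ± 1.21 CPM (SD, n = 3). PHLDA1 was the gene called lower (-0.53 ± 0.046, adjusted p = 3.07e-09). This call was lost on the fold limit with library totals alone (-0.31) and without OIM replicate 2 (-0.47) or bFGF replicate 3 (-0.48). CCND1, the cyclin D1 gene, was the gene of this list called in OIM against control (0.57 ± 0.074, adjusted p = 2.17e-05). Without OIM replicate 2 its value was 0.43, below the fold limit, and the list had 0 called higher there. Without OIM replicate 3 the list had 2 called higher. Against control 14 of the 19 were called higher and 1 lower in the bFGF group, where 18.9% and 20.0% of all genes were.

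**Figure D5:**
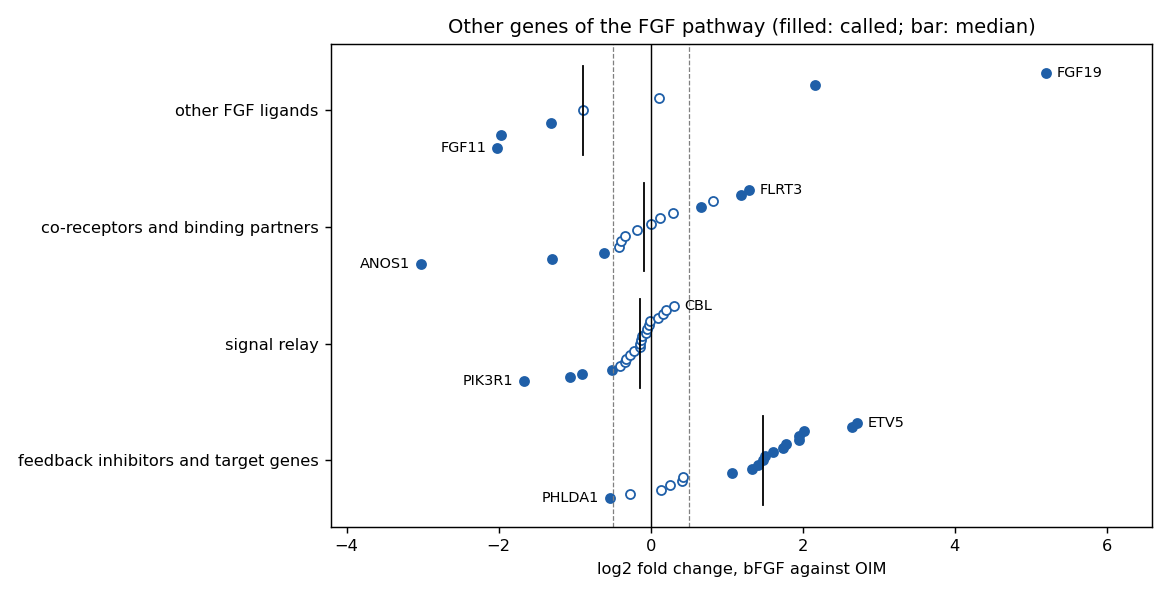
Log2 fold change in bFGF against OIM (horizontal axis) of the tested genes in 4 lists of the FGF pathway, with filled points for called genes, black bars for the list medians and dashed lines for the fold limit of 0.5. The feedback inhibitors and target genes lie mostly to the right, with a median of 1.48, and the signal relay has a median of -0.14, with PIK3R1 lowest at -1.67.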

How the data were processed

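RNA from 9 libraries, in 3 groups of 3 taken from the labels, was measured in a single table. The authors deposited whole-number counts for 19535 genes and estimated counts for 9888 non-coding transcripts, and 6179 circRNA rows, all without normalization. The submitters' processing notes name Trimmomatic, HISAT2, StringTie and Sscrofa11.1, whereas the paper's methods name Cutadapt and STAR. The labels name a stranded library kit with removal of ribosomal RNA and the methods a poly-A selected one, and they also differ on the time of treatment, for which the labels were followed. The counting program, its strand setting and the annotation are not given in the sources used here. The RefSeq annotation of Sscrofa11.1 had exon boundaries at both ends of 5246 circRNAs, and at 0 when shifted by 1 base, as a check of the build. The 19 columns without a name or value were not used.

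Genes were kept with filterByExpr, scaled by TMM and tested with the quasi-likelihood test of edgeR 4.0.16 in R 4.3.3, on all 3 groups together (6 residual degrees of freedom, common biological coefficient of variation 0.0602). A call required a Benjamini-Hochberg adjusted p over the 13662 genes no higher than 0.05 and a log2 fold change of 0.5 or more in either direction. Estimated counts were rounded, and the library sizes of the gene rows were kept for their test. Lengths per kb are the union of RefSeq exons. FGFR1, FGFR2 and FGF2 each had 1 annotated transcript, of 3282, 2645 and 6684 bases. Their levels per length rest on these lengths, which the longest transcript as length could not change. The code was tested on simulated data. The members and lists were chosen with earlier results of these data known. Named were all members, the 3 nearest profiles of each called member, and those genes overlapping a member that had counts in any library. Of each pathway list, the up to 3 called genes with the largest change per direction in bFGF against OIM were named. List genes called in OIM against control were named as well. FGF16, FGF21, FRS2, CBL and the cell type markers were named outside this rule. Alternatives were DESeq2 1.42.0, other scalings and filters, fits of 2 groups, a replicate block, no fold limit, the longest transcript as length, and each library left out.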

Additional observations from a re-analysis of the deposited data

How the results depend on the processing

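The falls of FGFR2, FGFRL1 and the rise of FGF1 with bFGF, in both comparisons, were called in 16 of 16 alternatives each. The other counts moved as follows. With no fold limit, 2 members were lower in OIM against control, 3 were higher in bFGF against OIM and 4 higher in bFGF against control. The same setting gave 11 pathway genes higher and 4 lower in OIM against control, 25 higher and 24 lower in bFGF against OIM and 27 higher and 25 lower in bFGF against control. Over all genes it gave 1051 higher and 802 lower, 4620 higher and 4583 lower, and 4709 higher and 4881 lower in OIM against control, bFGF against OIM and bFGF against control. With library totals alone, 2 members were higher in bFGF against OIM and 5 in bFGF against control, and 3733 and 3931 of all genes were, while 1694 and 1840 were lower. With only the 2 groups compared, 0 members were higher in OIM against control. Leaving out 1 library gave 0 to 1 members higher in OIM against control and 1 to 2 in bFGF against control. It gave 1 to 4 pathway genes higher and 0 to 1 lower in OIM against control, where the 1 higher was without OIM replicate 2.

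Libraries with the same replicate number did not deviate together (correlations of -0.032 to 0.0035), which gave no sign that the numbers pair the samples. With 3 libraries per group this check cannot exclude a pairing. A replicate block left 1 member higher in bFGF against control, since FGFR3 had an adjusted p of 0.0403 and a log2 fold change of 0.4957, and it changed no other call of a member.

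Directions turned only for values that were not called. FGFR4 in OIM against control (-0.02) ran from -0.12 to 0.079 with 1 library left out. FGF10 ran from -0.33 to 0.0011 in OIM against control, from -0.065 to 0.26 in bFGF against OIM and from -0.18 to 0.042 in bFGF against control, where library totals gave 0.16. FGF18 in bFGF against OIM ran from -0.10 to 0.93. Their counts, at most 195 for FGFR4 and 39 for FGF18 per library, limit what these comparisons can show. The fall of FGF2 against OIM was not called with library totals alone, and FGFR1 and FGF7 were then called higher against control. The cause of these changes was not tested.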
